A study of Mus musculus with 6 samples.

Results

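The Reg lectins and pancreatic stress genes are 10 named genes, taken by their symbols from the study's table of test results: the regenerating (Reg) lectins Reg1, Reg2, Reg3a, Reg3b, Reg3d and Reg3g, the symbol Pap, and the stress and metaplasia genes Nupr1, Clu and Onecut2. The table had rows for 9 of them among 14681 genes; Pap had no row of its own and is listed by RefSeq as a synonym of Reg3b and of Papola. The genes were proposed with the results of this comparison in view: they were chosen by symbol, and the deposited fold changes and p-values that were in view are given as a description.

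The study dissected the dorsal pancreas of C57BL/6 mouse embryos at embryonic day 18.5 and sequenced its RNA in 3 knockout and 3 control samples. The knockout is called Dpy30∆P in the labels. Dpy30 is a core subunit of the Trithorax group complexes that methylate lysine 4 of histone H3. The Cre driver, the genotype of the controls and whether they carry a floxed allele or Cre are not stated in the labels, although the name of the deposited table refers to Pdx1. The samples are whole dissected tissue, 3 of each kind, and a p-value here reflects only the spread among those samples. The sample titles do not state how many embryos gave each sample.

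Reg proteins are small secreted C-type lectins. Acinar cells, which make the digestive enzymes, release several of them into pancreatic juice, and their transcripts rise during pancreatitis and regeneration; in the gut, Reg3b and Reg3g are antibacterial lectins that interleukin 22 induces through STAT3. Nupr1 encodes a small nuclear stress protein first found in inflamed pancreas, Clu encodes clusterin, a secreted chaperone, and Onecut2 encodes a cut-homeobox transcription factor of liver and pancreas development.

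The 6 Reg genes lie together on mouse chromosome 6, from 78370885 to 78468874 (GRCm38.p6, RefSeq), a span of 98.0 kb. In order along the chromosome they are Reg3b, Reg3d, Reg3a, Reg2, Reg1 and Reg3g. The 250 bases before the transcription start are given here for the abundant gene called higher (Reg1), its nearest relative by transcript (Reg2, 59.2% identity), the scarce gene called higher (Reg3g) and its nearest relative (Reg3b, 67.7%). They come from RefSeq on GRCm38.p6 and are written 5′ to 3′ on the gene's strand; capitals mark the letters TATAAA and, in Reg3b, a match to the STAT-type motif TTCNNNGAA.
Reg1: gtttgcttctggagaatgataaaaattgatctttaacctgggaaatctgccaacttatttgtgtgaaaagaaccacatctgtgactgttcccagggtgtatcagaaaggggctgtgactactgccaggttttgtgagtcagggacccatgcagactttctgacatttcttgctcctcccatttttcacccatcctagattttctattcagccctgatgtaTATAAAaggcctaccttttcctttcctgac
Reg2: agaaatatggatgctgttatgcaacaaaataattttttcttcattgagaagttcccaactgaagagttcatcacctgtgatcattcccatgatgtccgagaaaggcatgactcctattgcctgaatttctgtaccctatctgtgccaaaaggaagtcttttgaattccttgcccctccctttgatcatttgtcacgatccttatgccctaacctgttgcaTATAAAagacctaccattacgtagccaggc
Reg3g: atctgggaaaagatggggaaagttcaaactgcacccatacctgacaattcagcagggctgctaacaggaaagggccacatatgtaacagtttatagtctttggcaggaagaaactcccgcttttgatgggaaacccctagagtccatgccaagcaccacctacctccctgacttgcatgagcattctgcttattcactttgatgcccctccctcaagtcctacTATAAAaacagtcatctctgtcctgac
Reg3b: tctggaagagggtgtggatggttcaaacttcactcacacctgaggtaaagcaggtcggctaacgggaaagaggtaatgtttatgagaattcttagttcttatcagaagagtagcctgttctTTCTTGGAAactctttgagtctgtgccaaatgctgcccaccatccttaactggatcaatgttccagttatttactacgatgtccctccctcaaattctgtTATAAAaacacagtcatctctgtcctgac
The windows are chr6:78425733-78425982 (plus strand) for Reg1, chr6:78404905-78405154 (plus strand) for Reg2, chr6:78468875-78469124 (minus strand) for Reg3g and chr6:78370635-78370884 (plus strand) for Reg3b.

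The Reg1 and Reg2 windows shared 56.9% of aligned positions, and those of Reg3b and Reg3g shared 68.4%, the highest of the 15 pairs of Reg windows aligned; gaps counted as differences. All 4 windows written above held TATAAA on the gene's strand, which began 30 bases before the start in Reg1 and Reg2, 27 in Reg3g and 29 in Reg3b. The windows of Reg3a, Reg3d and Nupr1 did not hold TATAAA. Of 32851 RefSeq promoter windows of this length, 7.59% held TATAAA on the gene's strand. The motif TTCNNNGAA, which reads the same on both strands, was found in Reg3b, Reg3d and Nupr1, and in 7.02% of all windows. No match to these letters was found in the windows of Reg1, Reg2, Reg3a and Reg3g. The E-box CAGCTG, also the same on both strands, was found in Nupr1 alone of the 7 windows of these genes and in 13.0% of all windows. These matches describe letters and overlap no other motif searched.

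Sequence overlap between the Reg transcripts was small. Of the stretches of 31 bases in the longest coding GENCODE transcript of each gene, 5 of 741 in Reg3g and 5 of 753 in Reg3b were common to both genes, and 0 in Reg1, Reg2, Reg3a or Reg3d occurred in another Reg gene. In Reg1, 51 of 874 stretches (5.84%) occurred in transcripts of genes outside the family. The longest Reg1 transcript has 904 bases.

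The table gives 1 mean over all libraries for each gene and no value for a single sample, so the levels of the samples and the overlap of the groups are not known here. It gives the mean normalized count, a fold change on the log2 scale that was shrunken toward 0 with its posterior SD, a p-value and an adjusted p. Where the table allowed it, the unshrunken log2 fold change and its SE were reconstructed. The numerator of the fold changes is not stated: higher and lower are read as higher and lower in the knockout, and every direction reverses under the opposite convention. Dpy30 does not settle the direction, with a mean normalized count of 29.4 and a reconstructed log2 fold change of 0.49 ± 1.64 (SE), beside an adjusted p of 1.00 listed by the authors' deposited table. In bulk tissue, fewer cells of a type and less RNA per cell cannot be told apart.

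Abundance differed widely within the family. Per kb of transcript, Reg1 had a mean normalized count of 2391, Reg3b of 47.5, Reg3d of 39.2, Reg3g of 33.3, Reg3a of 4.49 and Reg2 of 4.30. Reg1 thus supplied 95.6% of the summed mean normalized counts of the 6 Reg genes. Of the stress genes, Nupr1 had 2642 per kb, Clu 729 per kb and Onecut2 0.906 per kb. Reg1 and Nupr1 were therefore of like abundance only as means over all libraries, and without values per sample no spread can be set beside these levels. The averages implied by their fold changes differed within each group. For Reg1 and Nupr1 these were 764 and 2814 in the control and 3558 and 1566 in the knockout. By mean normalized count, Nupr1 ranked 156 and Reg1 157 of the 14681 genes.

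**Figure D1:**
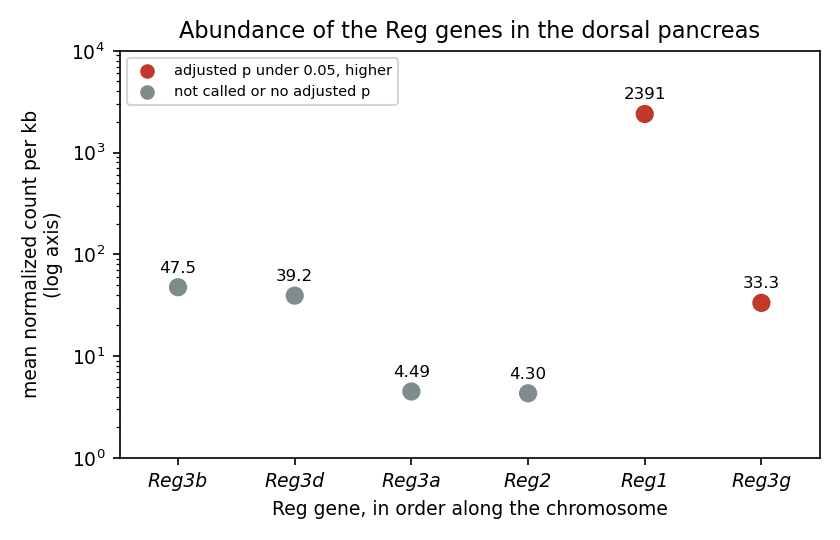
Mean normalized count per kb of transcript over all libraries (y axis, log scale) of the 6 Reg genes in their order along the chromosome (x axis); red points were called higher at an adjusted p under 0.05. Reg1, at 2391, stands far above Reg3b, at 47.5, and Reg2 and Reg3a lie near 4.

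Of the 7 genes with an adjusted p, 2 were called higher at an adjusted p under 0.05 (Reg1 and Reg3g) and 0 were called lower in the authors' DESeq2 test. Over the whole table, 0.743% of 12108 genes were called, 0.264% higher and 0.479% lower. At an unadjusted p under 0.05, Nupr1 was the single gene added, on the lower side; 5.39% of the 14386 genes with a p passed that threshold, and 2.70% passed it on the higher side. All 6 Reg genes had a fold change above 0, as did 54.7% of all genes, and Nupr1, Clu and Onecut2 lay below 0. That share is no fit background for Reg2 and Reg3a, since most genes with counts as low as theirs had a positive sign. The median signed z of the p was 0.95 and 0.89 among genes within 10% of their counts. Reg3b lay at only 0.0049. The median deposited log2 fold change of the 9 genes was 0.01 and that of all genes 0.0032.

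Reg1 (Entrez gene 19692; chromosome 6, 78425983 to 78428668, GRCm38.p6) encodes the pancreatic stone protein, a main Reg lectin of acinar secretion. Its mean normalized count was 2161. The authors' deposited table lists a log2 fold change (± posterior SD) of 2.11 ± 0.35 and a DESeq2 adjusted p of 1.29e-07. Without shrinkage it was 2.22 ± 0.35 (SE; 95% interval 1.54 to 2.90). Shrinkage therefore hardly touched it. With equal group sizes, this fold change and the mean place the knockout average at 3558 normalized counts and the control average at 764; these are implied values, not measured per group. Of the 32 genes called higher, Reg1 had the smallest p. It was 1 of 4 genes called higher among the 408 tested genes with a mean normalized count over 1000 (0.980%), of which 23 (5.64%) were called lower.

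Reg3g (Entrez gene 19695; chromosome 6, 78466269 to 78468874) encodes the lectin RegIII-gamma, which in mouse intestine acts on Gram-positive bacteria. It had a mean normalized count of 25.7, a sum of about 154 over the 6 libraries. The authors' deposited table lists an adjusted p of 0.0273 beside a log2 fold change of only 0.05 ± 0.23 (posterior SD). Its unshrunken size could not be reconstructed, so the sign and the p are known and the size is not. The same combination was met elsewhere: of the 90 called genes, 22 had a deposited log2 fold change within 0.1 of 0, and the largest mean normalized count among those 22 was 94.7.

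Genes with counts like those of Reg3g fell into separate ranges of deposited fold change. Of the 1681 tested genes with a mean normalized count between 20 and 40, 23 were called (1.37%), 18 of them higher (1.07%); this range was chosen after the values were seen. The 18 higher genes had deposited log2 fold changes of 5.77 to 8.59 in 12 cases and of 0.042 to 0.046 in the other 6, Reg3g among them. Hsd3b7, a bile acid synthesis gene of liver, with a mean normalized count of 27.4 and, by the authors' deposited table, an adjusted p of 0.0175, had a log2 fold change of 7.92 ± 3.46 (posterior SD). Manba, with a mean normalized count of 27.3 and, by the authors' deposited table, an adjusted p of 0.0262, had 0.04 ± 0.23. Both had like counts and like p-values, with deposited fold changes far apart. On the scale of the signed z of the p, Reg3g stood at 3.76, and of 449 other genes whose mean normalized count lay within 10% of its own, 2 (0.445%) had a larger z.

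Reg3b, Reg3d, Reg3a and Reg2 were not called. Reg3b (Entrez gene 18489), the pancreatitis-associated protein also named Pap, had a mean normalized count of 37.2 and an unshrunken value of 0.28 ± 1.64 (SE; 95% interval -2.94 to 3.49, log2 units). Reg3d, which encodes a relative of the islet neogenesis-associated protein of hamster, had a mean of 30.7 and a reconstructed value of 2.40 ± 2.35 (SE; 95% interval -2.20 to 6.99). Both intervals hold 0 and also fold changes of several times in either direction, so the size of neither change is known. Reg3a had a mean normalized count of 3.70 and an unadjusted p of 0.187 in the authors' DESeq2 test. Reg2, the nearest relative of Reg1, had a mean of 3.00 and an unadjusted p of 0.214 in the same DESeq2 test. Neither had an adjusted p, and the smallest mean normalized count with one was 8.15. Reg2 had a signed z of 1.24 and Reg3a of 1.32. Of 252 genes within 10% of the count of Reg2, 52 (20.6%) had a larger z, the median was 0.95 and the largest 1.28. Of 250 genes within 10% of the count of Reg3a, 49 (19.6%) had a larger z, the median was 0.89 and the largest 1.35. At these counts the largest z lay close to the z of either gene, so the comparison could not have set Reg2 or Reg3a apart. Reg3g and Reg3b thus share the most similar promoter windows and like counts, with a call for Reg3g and none for Reg3b; whether their changes differ was not tested.

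**Figure D2:**
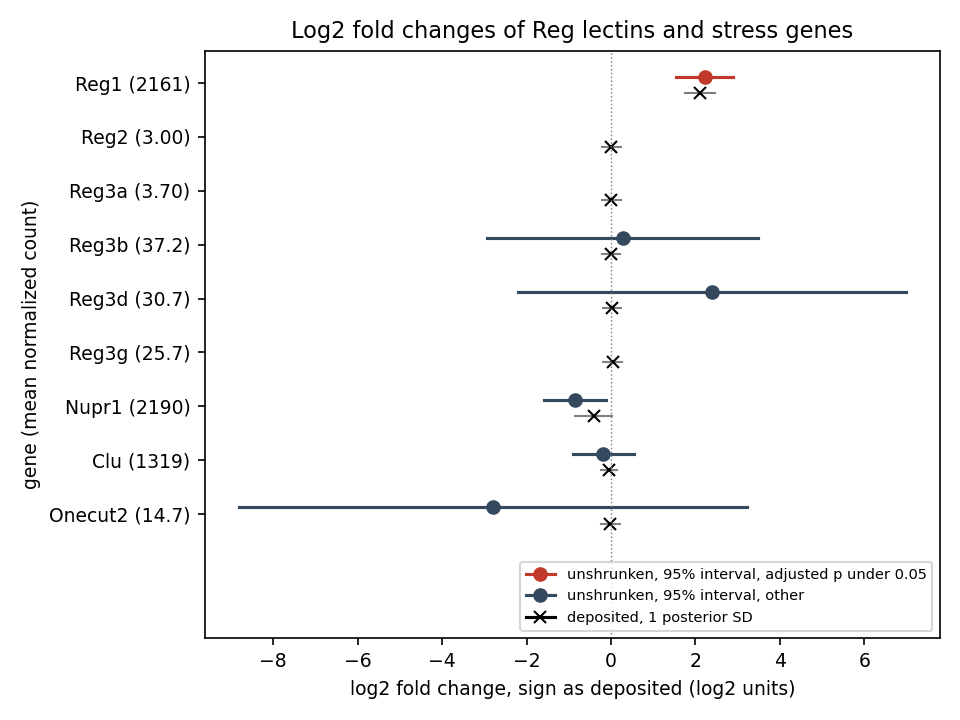
Log2 fold changes of the 9 genes on the x axis, in log2 units with the deposited sign, with the mean normalized count in brackets; circles are reconstructed unshrunken values with 95% intervals, red where called, and crosses are deposited values with 1 posterior SD. Reg1 lies at 2.22 with an interval clear of 0, Nupr1 at -0.85, and the intervals of Reg3b, Reg3d and Onecut2 are wide; Reg2, Reg3a and Reg3g have a deposited value only.

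The stress genes lay on the other side of 0. Nupr1 (Entrez gene 56312; chromosome 7, 126623246 to 126625470, GRCm38.p6) had a mean normalized count of 2190 and a log2 fold change (± posterior SD) of -0.41 ± 0.44 with an adjusted p of 0.602, both from the authors' deposited table. Its reconstructed value was -0.85 ± 0.37 (SE; unadjusted p = 0.0229 in the authors' DESeq2 test), with a 95% interval from -1.58 to -0.11. The implied averages were 1566 normalized counts in the knockout and 2814 in the control. It did not pass the adjusted threshold. Relative to pan-epithelial genes its value was -0.14, and relative to acinar digestive enzyme genes 0.75, on the other side of 0.

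Clu (Entrez gene 12759; chromosome 14, 65968483 to 65981548) had a mean normalized count of 1319 and a reconstructed log2 fold change of -0.18 ± 0.37 (SE), beside an adjusted p of 1.00 listed by the authors' deposited table. Its 95% interval, from -0.90 to 0.55, lies within 1 log2 unit of 0. Relative to pan-epithelial genes its value was 0.53 and relative to acinar enzyme genes 1.41. Such scaling subtracts the fixed mean of a list that is lower in these same data, and it leaves the SE of Clu unchanged. The adjusted p relative to acinar enzymes (0.00170, from the reconstructed z over all genes with a value) therefore tests no difference between Clu and those genes. At the larger prior scale tried its value was -0.09. Onecut2 (Entrez gene 225631), on chromosome 18, had a mean normalized count of 14.7 and a reconstructed value of -2.80 ± 3.07 (SE), beside an adjusted p of 1.00 listed by the authors' deposited table, too wide for any direction. Onecut1 and Onecut3 are not analysed here.

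**Figure D3:**
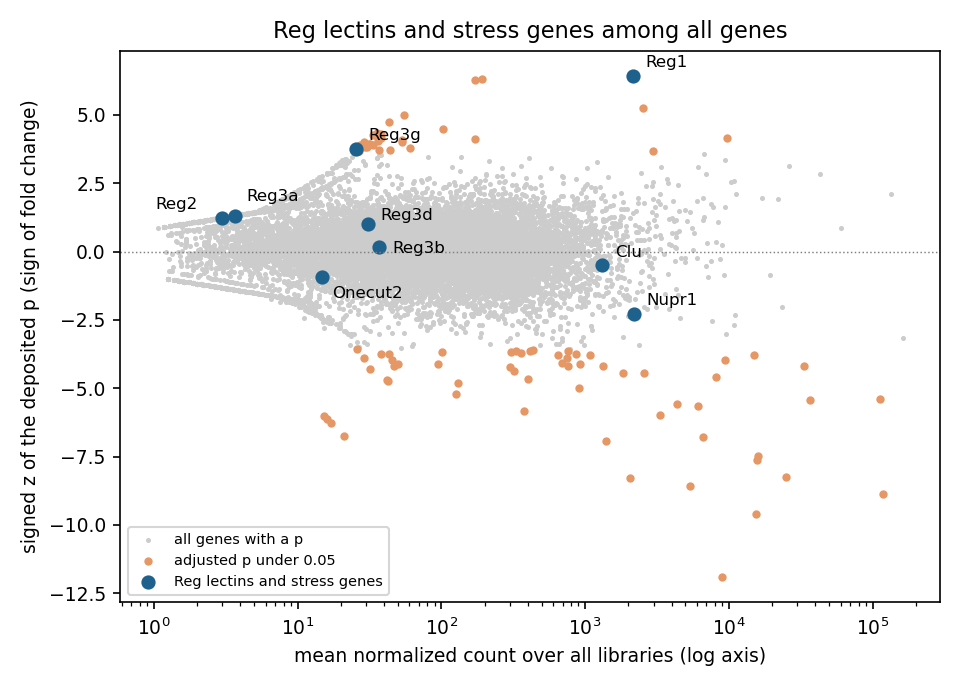
Signed z of the deposited p (y axis, sign of the deposited fold change) against the mean normalized count over all libraries (x axis, log scale) for the 14386 genes with a p; orange points are the 90 called genes and blue points the 9 genes described. Reg1 stands above 6 on the y axis at a count of 2161 and Reg3g near 4 at a count of 25.7, while the remaining 7 lie between -3 and 2.

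Reg1 had the opposite sign to most of the digestive enzymes that acinar cells secrete with it. Of 25 acinar digestive enzyme genes with an adjusted p, 15 were called lower and 0 higher, against 0.479% and 0.264% of all genes, and the median deposited log2 fold change of the list was -1.30. The weighted mean reconstructed value of its 23 well determined genes was -1.59, so Reg1 stood 3.81 log2 units above it. The difference was not tested, since the table holds no covariance between genes. At a raw DESeq2 p below 0.05 the list had 21 genes lower and 2 higher. The 2 were Try4, a trypsinogen, and Cela1, an elastase. Try4 had a reconstructed value of 1.20 ± 0.36 (SE) beside an adjusted p of 0.0854 listed by the authors' deposited table. Cela1 had 0.56 ± 0.28 (SE) and an adjusted p of 0.770 in the same table. They share the sign of Reg1 and were not called. Sequence shared among trypsinogen copies was not measured, either for Try4 or for the trypsinogens called lower. Sycn (syncollin, a zymogen granule protein) was called lower, with a log2 fold change (± posterior SD) of -1.81 ± 0.54 and an adjusted p of 0.00779, as the authors' deposited table lists them. Zg16, a granule lectin, had a reconstructed value of -1.06 ± 0.39 (SE), beside an adjusted p of 0.333 listed by the authors' deposited table. Spink1, the trypsin inhibitor that acinar cells release, was called lower, with a log2 fold change (± posterior SD) of -1.67 ± 0.61 and an adjusted p of 0.0312, as the authors' deposited table lists them. Of 6 acinar transcription factors 0 were called, and 0 had a raw DESeq2 p below 0.05.

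The route that induces Reg3 genes in other tissues was measured in part. Of 26 listed cytokines, receptors, kinases and feedback genes of the IL-6 and IL-22 family, 18 had a row and 16 an adjusted p; 1 was called lower and 0 higher, where 0.479% and 0.264% of all genes were, and the median deposited log2 fold change was 0.01. The called gene was Il22ra1, the interleukin 22 receptor subunit, with a mean normalized count of 333 and a log2 fold change (± posterior SD) of -1.56 ± 0.59 with an adjusted p of 0.0373, both from the authors' deposited table. Its reconstructed value was -1.90 ± 0.52 (SE), where the weighted mean of the acinar digestive enzyme genes was -1.59. Whether this route bears on Reg3g was not tested. Bcl3, a STAT3-responsive cofactor of NF-kappaB, had a mean normalized count of 19.4 and, by the authors' deposited table, an adjusted p of 0.111 on the higher side. The ligands Il6, Il11, Il22 and Osm and the feedback gene Socs3 are not analysed here. Extl3, a proposed Reg receptor, had a reconstructed value of -0.42 ± 0.33 (SE), beside an adjusted p of 1.00 listed by the authors' deposited table.

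Other injury genes did not share one direction. Of 17 secreted injury and acute-phase genes with an adjusted p, 1 was called higher and 1, Spink1, lower; for these and the following lists, 0.264% of all genes were called higher and 0.479% lower, and 54.7% of all genes had a positive sign. The higher one was Cp (ceruloplasmin, a plasma copper protein made mainly by liver), with a mean normalized count of 33.6 and, by the authors' deposited table, an adjusted p of 0.0179, beside a deposited log2 fold change of 0.04. Lcn2, an antibacterial siderophore-binding protein of inflamed epithelia, had a mean normalized count of 12.1 and, by the authors' deposited table, an adjusted p of 0.710. Its raw DESeq2 p was 0.0359, on the higher side. Of 14 genes of the integrated and unfolded protein stress responses, 1 was called lower and 0 higher, and 11 had a negative sign. The called gene was Asns (asparagine synthetase, an Atf4 target), with a log2 fold change (± posterior SD) of -1.29 ± 0.40 and an adjusted p of 0.0105, as the authors' deposited table lists them. Of 12 duct and metaplasia genes with an adjusted p, 1 was called lower and 0 higher, and all 13 with a row had a negative sign. The called gene was Krt18 (a simple-epithelium keratin), with a log2 fold change (± posterior SD) of -1.10 ± 0.29 and an adjusted p of 0.00315, as the authors' deposited table lists them. Pkhd1, a duct cilium gene, had a reconstructed value of -1.66 ± 0.67 (SE), beside an adjusted p of 0.491 listed by the authors' deposited table.

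**Figure D4:**
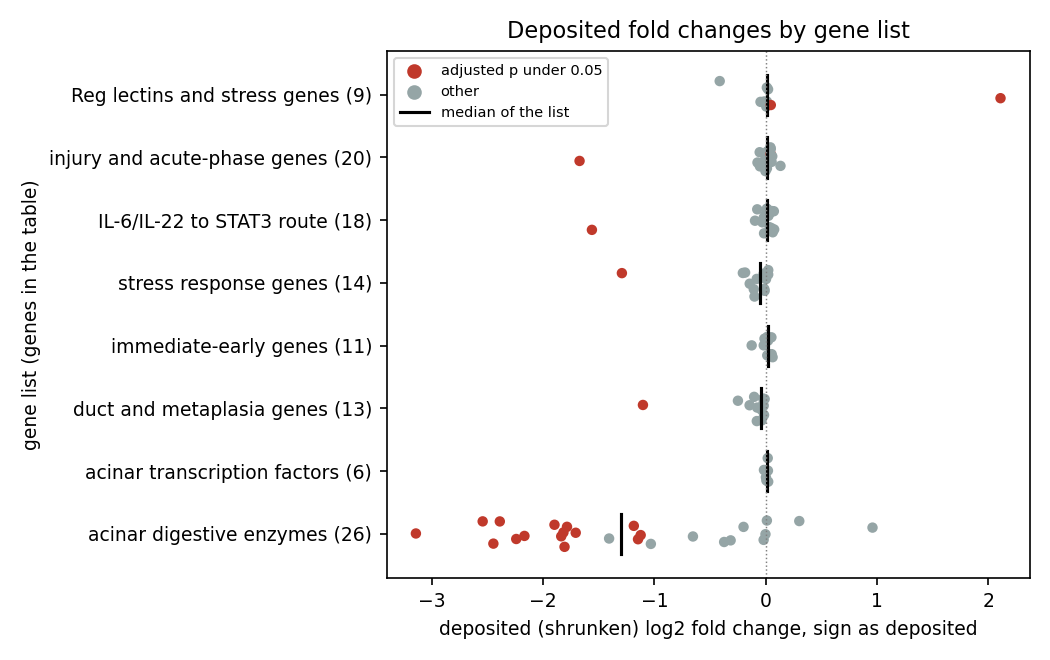
Deposited log2 fold changes (x axis, shrunken, sign as deposited) of the genes of 8 lists (y axis, number of genes with a row in brackets); red points have an adjusted p under 0.05 and black bars are medians. Reg1, at 2.11, is the right-most point of its list, while the acinar enzymes have a median of -1.30.

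Markers of other tissues that make Reg3 lectins or surround the pancreas were in the table at low to high levels. Of 12 intestinal markers, 4 had a row, with a summed mean normalized count of 153, and the defining factors Cdx1 and Cdx2 are not analysed here; 0 were called, and Lgals4 had a raw DESeq2 p below 0.05 on the lower side. Of 6 stomach markers, 5 had a row, with a summed mean of 379; Tff1, Gkn1, Gkn2 and Pgc had no p, and all 5 had a negative sign. Of 10 liver markers all had a row, with a summed mean of 11476; all 10 had a positive sign, 0 were called, and 4 had a raw DESeq2 p below 0.05. Reconstructed values ran from 0.86 ± 1.64 (SE) for Apoa2 to 2.38 ± 1.29 for Alb, with 2.26 ± 1.22 for Trf. The 3 well determined markers were Apoa1 at 2.20 ± 0.80, Afp at 1.44 ± 0.70 and Ttr at 1.13 ± 0.54. Outside this list, the liver-expressed genes Cp, Hsd3b7 and Serpina1d were called higher in the authors' deposited table (DESeq2 adjusted p of 0.0179, 0.0175 and 0.0312). Cp and Serpina1d had deposited log2 fold changes of only 0.04 and 0.03. How many other liver-expressed genes were not called was not counted. Of 11 macrophage and leukocyte markers, 10 had a row, with a summed mean of 1314, and 0 were called or had a raw DESeq2 p below 0.05. The level of these lists in each group is not known from 1 mean over all libraries, and their part in the results for Reg1 and Reg3g was not tested.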

How the data were processed

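RNA of the dorsal pancreas was ribodepleted and made into stranded libraries from small RNA amounts with a SMARTer kit, per the labels' protocols. The submitters' processing notes name Trimmomatic, Salmon and DESeq2 and the build GRCm38 (mm10); their versions, the annotation and the model were not stated there. The authors deposited 1 table with, per the file headers, the mean normalized count over all libraries (a signal), the log2 fold change and its error (log2 units), and the p-value and adjusted p-value of each gene. Depth per library is unknown; the mean normalized counts of the 14681 genes sum to 3663175.

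No gene was tested again. A gene was called at a deposited adjusted p under 0.05; 2278 genes with a p but a mean normalized count of at most 8.15 had no adjusted p. Unshrunken fold changes were reconstructed, assuming a Cauchy prior of a common scale and a quadratic likelihood, with the scale (0.310) chosen for the best return of the p-values; for 88.6% of genes the z differed by under 0.1, and values are given only for those. Of these, the 5726 with an SE no larger than 1 are termed well determined. The arithmetic was tested on simulated data. Levels per kb used the longest coding GENCODE M21 transcript. Promoter windows, positions and synonyms came from RefSeq on GRCm38.p6, whose rows were matched by gene ID.

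The genes described and the gene lists were chosen with earlier results of these data known, and TATAAA was added to the 2 motifs chosen at first. Named from the lists are called genes and, where a list bears on the genes described, those with the smallest p, though not every called enzyme is named. Extl3, Lcn2, Try4, Cela1, Hsd3b7, Manba, Serpina1d, Apoa1, Apoa2, Afp, Ttr, Alb and Trf were chosen after their values were seen. Alternatives were other thresholds, another adjustment, a minimum mean normalized count of 10, other prior scales, and scaling on pan-epithelial or acinar enzyme genes. The computations used Python 3.11.15, pandas 2.3.3 and scipy 1.17.1.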

Additional observations from a re-analysis of the deposited data

How the results depend on the processing

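Reg1 stayed at 2.22 on the log2 scale, past an adjusted p of 0.05, under each prior scale tried. It was 2.93 relative to pan-epithelial genes and 3.81 relative to acinar enzyme genes. Both scalings subtract a negative mean, so they could only raise a positive value and do not test how stable Reg1 is. At an adjusted p under 0.01, 1 of the 9 genes (Reg1) and 54 genes of the whole table were called, against 2 and 90; Reg3g was the call lost. Under the other adjustments and thresholds 2 of the 9 genes were called. Of the 6 genes with a reconstructed value, 3 lay above 0, 5 did relative to acinar digestive enzyme genes, and 1 of the 2 that could be reconstructed did at 0.8 times the prior scale. Relative to acinar enzyme genes Nupr1 was 0.75 and Clu 1.41, and relative to pan-epithelial genes Clu was 0.53. All were negative as deposited. These scalings subtract a weighted mean of -1.59 or -0.71 from every gene and leave each SE unchanged. Their adjusted p-values (0.131, 0.00170 and 0.687, from the reconstructed z) therefore test no difference from the genes used for scaling. At the larger prior scale tried Reg3d was 0.06, Onecut2 -0.04, Reg3b 0.01 and Clu -0.09, against -0.18 for Clu at the scale used; the reconstructed sizes of these genes rest on the scale. At 0.8 times that scale Nupr1 passed (adjusted p = 0.0387, over fewer genes). With a mean count of at least 10, the median of intestinal markers was -0.013 on 2 genes, against 0.0064. No paired analysis was possible because the table holds no values per sample, and leaving out replicates was not possible for the same reason. Reg2, Reg3a, Reg3b, Reg3d and Onecut2 had low mean counts, which limits what can be said of them. The median SE was 1.97 at mean counts of 20 to 40, and 0.33 at 1000 to 3000.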

Other observations

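The nearest genes with a row on either side of the Reg cluster had few counts. Ctnna2, a catenin gene 391070 bases before Reg3b, had a mean normalized count of 2.45 and no adjusted p, and Lrrtm4, a neuronal adhesion gene 1549984 bases after Reg3g, had 3.74 and likewise no adjusted p. The next gene with a row after Nupr1 was Sgf29, a chromatin reader subunit of the SAGA complex 22916 bases away. Sgf29 was at an adjusted p of 1.00 by the authors' deposited table (DESeq2). Of 11 immediate-early genes, which respond first to injury, 0 were called and 0 had a raw DESeq2 p below 0.05; 8 had a positive sign. Of 4 receptors and partners of clusterin with an adjusted p, 0 were called in that test. Apoe, an apolipoprotein that shares receptors with clusterin, was at 0.79 ± 0.33 (SE) on the unshrunken log2 scale, with a raw DESeq2 p of 0.0173 in the authors' deposited table.

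The remaining lists were as follows in the authors' DESeq2 test. Of 3 granulocyte markers with an adjusted p, 0 were called, and all 8 with a row had a positive sign. Of 5 mesothelial and of 4 Schwann cell markers with an adjusted p, 0 were called and 0 had a raw p below 0.05. Of 3 beta cell markers with an adjusted p, 1 was called lower, Ins2 (insulin). Of 13 pan-epithelial genes with an adjusted p, the list used above for scaling, 1 was called lower, Krt18, which is also in the duct and metaplasia list.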
